A study of Homo sapiens with 36 samples.

Results

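The MEF2 transcription factor genes MEF2A, MEF2C and MEF2D were described together with 7 genes that MEF2 factors or class IIa histone deacetylases (HDACs) are known to control in other cells: the Krüppel-like factors KLF2, KLF4 and KLF6, the orphan nuclear receptors NR4A1, NR4A2 and NR4A3, and the small GTPase gene RHOB. The genes were named by symbol, by a rule that uses no measured value, but they were chosen with earlier results of these data known. They are 10 of the 62757 genes counted in each library. RNA-seq of polyA RNA was made from HCT-116, a human colorectal carcinoma cell line, WT or FBXW7-/- (KO). FBXW7 is the substrate-binding part of a ubiquitin ligase. KO cells carried control esiRNA (esiCT), esiRNA to HDAC4 (esiHDAC4), or esiCT with #11, a degrader (PROTAC) of class IIa HDACs, for 48 h. Each was kept untreated or received oxaliplatin (OXPT), a platinum drug that crosslinks DNA, at 50 µM for the last 24 h. With the WT cells, untreated or with OXPT, this gave 8 groups of 3 libraries, 24 in all.

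The KO cells are a single edited line, so that a difference from WT cannot be told apart from a difference between lines. The title of the WT libraries gives control esiRNA and their treatment entry gives esiHDAC4, so that their esiRNA is not settled. The dose of #11 is not settled either, since 2 label entries disagree. A further 12 WT libraries, whose label entries contradict each other on OXPT or on the agent, entered no comparison. Nothing in the labels says that libraries of a group came from separate cultures, so p-values measure the spread between these libraries, which may be technical.

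MEF2 factors bind an A/T-rich site in promoters and enhancers. They recruit class IIa HDACs, which carry corepressor complexes with HDAC3 and hold MEF2 targets down, and kinases that send these HDACs to the cytoplasm release the targets. KLF and NR4A genes also behave as immediate early genes: serum, stress and kinase signals raise them within minutes to hours, and their mRNAs are short-lived. RHOB is known to be induced by DNA damage and growth factors in other cells. Since whole-culture RNA was counted, fewer cells expressing a gene and less of its RNA per cell cannot be told apart.

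Promoter sequence upstream of the RefSeq start in GRCh38.p14 is shown for KLF2 and RHOB, whose levels followed each other most closely, and for NR4A3, the gene called with #11. RefSeq windows were matched for 9 of the 10 genes, 18 windows in all, and not for NR4A2. The 250 upstream bases of each were scanned on both strands for the MEF2 site, the CArG box bound by serum response factor, the half-site TGACG of the cAMP response element and the CCAAT box. A MEF2 site stood in 3 of the 18 windows, 1 each of KLF2, MEF2A and MEF2C, and in 2.8% of all 35116 windows. The MEF2C match lay in a window inside the gene with 30.8% G and C. The MEF2A match lay in a window that begins in an annotated exon of the gene. The share of all windows was 1.16% for the CArG box, found in 0 of the 18, 21.2% for TGACG, found in 4, and 32% for CCAAT, found in 5. The TGACG matches lay in KLF4, MEF2C, NR4A3 and RHOB, and those of CCAAT in KLF6, MEF2A, MEF2C and RHOB. Capitals mark the matches below, a MEF2 site in KLF2, TGACG read on either strand in NR4A3, and the same half-site and the CCAAT box, each read on either strand, in RHOB. None of these motifs overlaps another, and a match is a description of the letters only.
KLF2, chr19:16324576-16324825, plus strand: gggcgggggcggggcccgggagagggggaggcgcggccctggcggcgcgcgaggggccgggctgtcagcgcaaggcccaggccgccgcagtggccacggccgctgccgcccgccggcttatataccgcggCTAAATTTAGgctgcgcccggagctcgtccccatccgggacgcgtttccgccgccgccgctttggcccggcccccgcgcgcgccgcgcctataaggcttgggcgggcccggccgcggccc
NR4A3, chr9:99821635-99821854, plus strand: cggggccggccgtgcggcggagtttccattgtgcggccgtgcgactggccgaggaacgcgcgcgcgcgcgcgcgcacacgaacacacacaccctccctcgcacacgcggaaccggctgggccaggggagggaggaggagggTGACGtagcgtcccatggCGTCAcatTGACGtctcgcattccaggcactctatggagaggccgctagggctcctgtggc
RHOB, chr2:20446824-20447073, plus strand: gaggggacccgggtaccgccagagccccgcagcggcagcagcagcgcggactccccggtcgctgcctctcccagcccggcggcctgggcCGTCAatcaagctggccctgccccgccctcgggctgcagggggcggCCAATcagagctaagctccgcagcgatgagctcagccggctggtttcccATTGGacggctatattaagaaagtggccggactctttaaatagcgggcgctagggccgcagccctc

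The KLF2 match lies 120 to 111 bases before the RefSeq start, in a stretch of 80.0% G and C that overlaps no other GENCODE gene. The NR4A3 window holds 4 copies of TGACG, of which the 3 printed lie 109 to 79 bases before the start. The last copy, 25 to 21 bases before it, falls in an annotated exon and was not printed. The end of the RHOB window furthest from the gene runs into the noncoding gene ENSG00000290108 on the opposite strand.

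In GENCODE 44 on GRCh38, the MEF2 genes are MEF2A (ENSG00000068305.19) on chromosome 15 from 99565417 to 99716488, MEF2C (ENSG00000081189.17) on chromosome 5 from 88717117 to 88904257, and MEF2D (ENSG00000116604.19) on chromosome 1 from 156463727 to 156500779. KLF2 (ENSG00000127528.6) lies on chromosome 19 from 16324826 to 16328685. KLF4 (ENSG00000136826.15) spans 107484852 to 107490482 and NR4A3 (ENSG00000119508.18) 99821855 to 99866891, both on chromosome 9. KLF6 (ENSG00000067082.15) runs from 3775996 to 3785281 on chromosome 10. NR4A1 (ENSG00000123358.20) is on chromosome 12 from 52022832 to 52059507. NR4A2 (ENSG00000153234.16) spans 156324437 to 156342348 and RHOB (ENSG00000143878.10) 20447074 to 20449440, both on chromosome 2. Genes on the opposite strand overlap MEF2A (LYSMD4), MEF2C (MEF2C-AS1 and MEF2C-AS2), KLF4 (ENSG00000289987), NR4A1 (NR4A1AS) and NR4A3 (STX17-DT). The counts used here take no account of strand, and reads assigned to more than 1 gene are not in them, so the values of these 5 genes leave out reads from the overlaps.

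The 24 libraries held 10725966 to 20527222 counts on genes (median 14510758). Some libraries stood apart. KO esiCT OXPT replicate 3 had 22.3% of its reads unmapped and WT untreated replicate 3 had 13.8%, against a median of 9.29%. The mean correlation with the other libraries of the group was 0.88 for KO esiCT OXPT replicate 3 and for WT untreated replicate 2 and 0.86 for WT untreated replicate 3, against 0.98 for KO esiHDAC4 untreated replicate 1. All levels are counts per 1000000 counts in the tested genes, after TMM scaling of the libraries (CPM). HDAC4, the target of esiHDAC4, had 19.1 ± 5.45 CPM in untreated KO esiCT and 10.9 ± 3.48 CPM in untreated KO esiHDAC4 (SD, n = 3). The log2 fold change of -0.82 ± 0.24 (SE) did not pass correction over all genes (edgeR, adjusted p = 0.561). Untreated WT cells had 22.0 ± 3.44 CPM of HDAC4. With OXPT its level was 8.98 ± 0.90 CPM in WT, 6.50 ± 0.91 in KO esiCT and 3.88 ± 0.48 in KO esiHDAC4. Which esiRNA the WT libraries carried was not tested from these values. FBXW7 RNA was 16.9 ± 1.34 CPM in untreated KO esiCT and 21.1 ± 3.60 CPM in untreated WT, and an edit that changes the protein need not change the RNA. Of the epithelial markers, EPCAM, KRT8, KRT18, KRT19 and CDH1 were present in each library and CDX1 and VIL1, which mark the intestine, were at or near 0. The blood and vessel markers PTPRC, CD3E and PECAM1 did not pass 1 CPM in any library, and VWF, also of vessels, ran from 0.0821 to 2.15 CPM. Epithelial markers moved with OXPT: their summed level was 5386 to 8418 CPM in untreated KO esiCT and 9419 to 21571 CPM with OXPT. KRT8 was called higher with OXPT in KO esiCT, KO esiHDAC4, KO #11 and WT cells, the one marker of the 7 called in all 4. The 8 markers of other cell types summed to 33.8 to 89.8 CPM, mostly of COL1A1 (25.1 to 77.6 CPM), and DES was called higher with OXPT in KO #11 and WT cells. The part of these markers in the results on OXPT was not tested.

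Levels were first compared between genes as CPM per kb of exon, since longer transcripts give more reads. RHOB was the most abundant of the 10, with 74.5 ± 6.82 CPM per kb in untreated KO esiCT (SD, n = 3). KLF6 followed at 19.2 ± 1.41 and KLF2 at 17.5 ± 2.67 CPM per kb, a pair that did not differ beyond its spread. KLF4 at 8.67 ± 1.39 and MEF2D at 8.26 ± 1.53 CPM per kb were likewise within each other's spread. NR4A2 stood at 4.53 ± 2.16, MEF2A at 2.56 ± 0.17 and NR4A1 at 2.36 ± 0.71 CPM per kb, ranges that overlapped. MEF2C had 1.06 ± 0.22 and NR4A3 0.19 ± 0.07 CPM per kb. MEF2D was thus the main MEF2 gene of these cells, and NR4A3 was the least expressed of the set. In untreated WT cells MEF2D was again the highest MEF2 gene, at 11.4 ± 4.09 CPM per kb, and NR4A3 the lowest of the 10 at 0.33 ± 0.06 CPM per kb. NR4A3 rested on 11 to 109 reads per library, so its values carry the most counting error, whereas RHOB rested on 1876 to 7182.

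**Figure D1:**
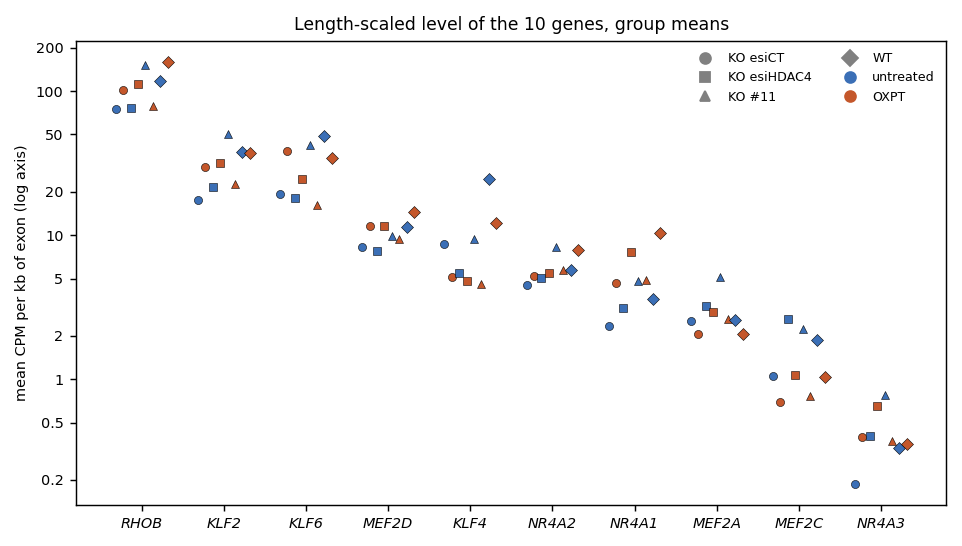
Mean CPM per kb of exon (log axis) of the 10 genes in each of the 8 groups, 3 libraries per group; shape gives the cells and esiRNA or #11, colour gives untreated (blue) or OXPT (red). RHOB lies highest and NR4A3 lowest in each group.

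From here on, levels are in the same TMM-scaled CPM, not divided by length, and are compared within a gene. All 10 genes passed the filter of a mean of 64 reads in at least 1 group, 9 of them in all 8 groups. NR4A3 passed only through untreated KO #11, where its mean was 79.7 reads, so any difference of that group from another was favoured by the filter. A gene was called changed when its edgeR quasi-likelihood p, adjusted by Benjamini-Hochberg over 12356 tested genes, was under 0.05 and its fold change was over 1.5.

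**Figure D2:**
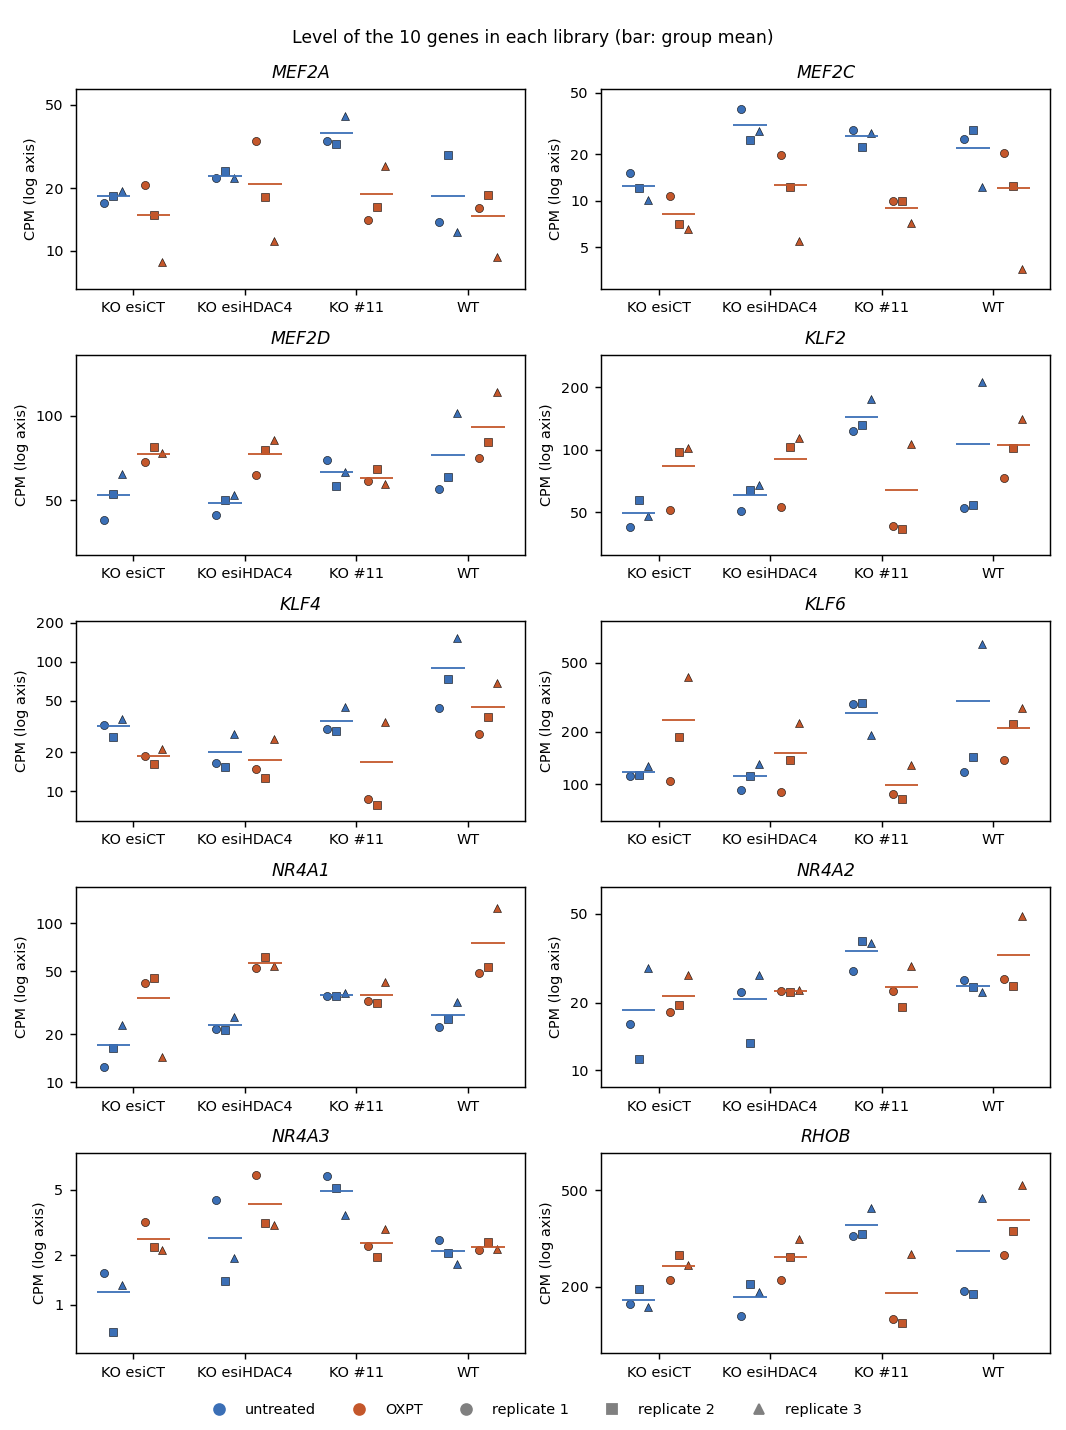
CPM (log axis) of each of the 10 genes in the 24 libraries, untreated in blue and OXPT in red, with a shape for each replicate number and a bar at the group mean. KLF2, KLF6 and RHOB are high in all untreated KO #11 libraries, and WT untreated replicate 3 lies far above its group for the same genes.

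The response to OXPT was asked first in KO cells with esiCT, the resistant cells of the study. None of the 10 genes passed the call there (0 of 10), where 11.3% of all tested genes did. DESeq2 called 1 of 10, beside 15.0% of all genes, and 3 of 10 had an unadjusted p under 0.05, beside 26.1%. The estimates ran upward for 7 genes and downward for 3, with a median log2 fold change of 0.47, beside 0.01 over all tested genes. All OXPT libraries lay above all untreated ones for MEF2D, NR4A3 and RHOB, 3 of 10, and this was so for 15.3% of all tested genes. KLF4, a factor of differentiated intestinal epithelium, was lower in all OXPT libraries, 1 of 10 beside 14.8% of all genes.

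NR4A1, an orphan receptor that stress signals induce, showed the role of a single library. It had 12.4, 16.4 and 22.8 CPM in the 3 untreated KO esiCT libraries and 41.8, 45.0 and 14.4 CPM with OXPT. Replicates 1 and 2 with OXPT stood above all untreated libraries, and replicate 3, the library with the most unmapped reads, stood within the untreated range. The log2 fold change was 0.98 ± 0.36 (SE, edgeR, adjusted p = 0.0821). Without KO esiCT OXPT replicate 3 it was 1.33 ± 0.32 and was called (edgeR, adjusted p = 0.0108). It was also called without WT OXPT replicate 3 (0.96 ± 0.30, edgeR, adjusted p = 0.0399). That library enters this comparison only through the shared spread, the scaling and the genes tested. Because libraries of the same number deviated together in this comparison, the fit with the replicate number as a block was set beside it. The block is 1 effect per replicate number shared by all 24 libraries, not a pairing within the comparison. It thus also covers the #11 libraries, whose numbers did not pair with those of esiCT. That block called 2 of the 10 genes, NR4A1 (1.06 ± 0.35, edgeR, adjusted p = 0.0468) and NR4A3 (1.10 ± 0.34, edgeR, adjusted p = 0.0353), and 15.7% of all genes. NR4A3 had 1.57, 0.68 and 1.32 CPM untreated and 3.19, 2.24 and 2.14 CPM with OXPT, groups that did not overlap. With the libraries numbered 3 left out of every group, a choice made after seeing the data, 3 genes were called, MEF2D and NR4A1 higher and KLF4 lower, beside 17.4% of all genes.

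KLF2 and KLF6, zinc finger factors that respond early to stress, were uneven across the OXPT replicates. KLF6 had 112, 113 and 128 CPM untreated, and 105, 187 and 413 CPM with OXPT. The first OXPT library lay below all untreated ones and the third far above them. Its log2 fold change was 1.00 ± 0.52, and 0.31 without KO esiCT OXPT replicate 3. KLF2 had 42.5, 57.4 and 47.7 CPM untreated and 50.9, 97.1 and 102 CPM with OXPT. Here 2 of the 3 OXPT libraries stood above the untreated group, and replicate 1 stood within it. RHOB had 170, 195 and 165 CPM untreated and 213, 269 and 246 CPM with OXPT. The groups were apart, and the log2 fold change was 0.46 ± 0.32, which was not called.

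In KO cells with esiHDAC4, OXPT raised NR4A1. It had 21.7, 21.2 and 25.7 CPM in the untreated libraries and 52.3, 61.5 and 53.8 CPM with OXPT. The groups were far apart and the OXPT libraries close together, and the log2 fold change was 1.29 ± 0.36 (edgeR, adjusted p = 0.022). It was the 1 gene of 10 called, beside 12.0% of all tested genes. The call was lost without KO esiHDAC4 OXPT replicate 2 or any 1 of the 3 untreated KO esiHDAC4 libraries, with log2 fold changes of 1.20 to 1.36. All OXPT libraries were above the untreated ones for MEF2D, NR4A1 and RHOB, 3 of 10 beside 18.8% of all genes, and below them for MEF2C alone, 1 of 10 beside 16.6%. MEF2D had 44.4, 50.2 and 52.2 CPM untreated and 61.8, 75.7 and 82.1 CPM with OXPT.

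MEF2C, the MEF2 factor best known from muscle, neurons and blood cells, had 39.4, 24.9 and 28.4 CPM in untreated KO esiHDAC4 cells and 19.9, 12.4 and 5.50 CPM with OXPT. Each OXPT library lay below the untreated group. The log2 fold change was -1.29 ± 0.47 (edgeR, adjusted p = 0.0787). It was called in the fit with the replicate block (-1.42 ± 0.35, edgeR, adjusted p = 0.00898), where 2 of the 10 genes and 16.7% of all genes were called. It was also called without KO esiHDAC4 OXPT replicate 1 (-1.77) or WT OXPT replicate 3 (-1.30).

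In KO cells with #11, the estimates ran downward for most of the set. After OXPT, 9 of the 10 estimates were below 0, with a median log2 fold change of -1.01 beside 0.00 over all tested genes. All OXPT libraries lay below all untreated ones for MEF2A, MEF2C, KLF2, KLF6, NR4A3 and RHOB, 6 of 10, and this was so for 20.1% of all tested genes. At an unadjusted p under 0.05, 7 of 10 were lower, beside 23.5% of all genes in either direction. NR4A3 is in each of these counts. It passed the count filter only through untreated KO #11, the baseline here, which favours a fall. The call itself was met by MEF2C, 1 of 10 beside 9.51% of all genes.

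MEF2C had 28.9, 22.4 and 27.4 CPM in untreated KO #11 cells and 9.88, 9.94 and 7.21 CPM with OXPT. The groups were wide apart and each was tight. Its log2 fold change was -1.54 ± 0.48 (edgeR, adjusted p = 0.0445), which lay close to the threshold. Leaving out any of 14 of the 24 libraries ended the call, including each of the 6 libraries compared, with log2 fold changes of -1.65 to -1.40 over all 24 fits and a highest adjusted p of 0.12 by edgeR. The others were the 3 untreated KO esiCT libraries, KO esiHDAC4 OXPT replicate 2, KO esiHDAC4 untreated replicates 1 and 3, WT OXPT replicate 2 and WT untreated replicate 1. With reverse-strand counts it was not called (-1.54, edgeR, adjusted p = 0.0748). MEF2A, the broadly expressed family member, had 33.6, 32.6 and 44.2 CPM untreated and 14.0, 16.2 and 25.6 CPM with OXPT, again without overlap, at -0.98 ± 0.38. MEF2D did not share this pattern, with 69.7, 56.5 and 62.9 CPM untreated and 58.4, 64.7 and 57.1 CPM with OXPT, and a log2 fold change of -0.07 (95% interval -0.54 to 0.40).

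KLF2 had 123, 131 and 176 CPM in untreated KO #11 cells and 42.7, 41.5 and 107 CPM with OXPT. KLF6 had 288, 294 and 191 CPM untreated and 87.7, 82.6 and 129 CPM with OXPT. RHOB had 323, 330 and 421 CPM untreated and 147, 142 and 273 CPM with OXPT. For the 3 genes, replicate 3 with OXPT was the highest of its group and the other 2 were close to each other. KLF4 had 30.3, 29.1 and 44.8 CPM untreated and 8.71, 7.93 and 34.0 CPM with OXPT, so that its replicate 3 reached into the untreated range. Log2 fold changes were -1.17 ± 0.47 for KLF2, -1.04 ± 0.50 for KLF4, -1.37 ± 0.52 for KLF6 and -0.93 ± 0.32 for RHOB, and none was called (edgeR, adjusted p from 0.0735 for RHOB to 0.212 for KLF4).

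These calls depended on the fit. With the replicate block, libraries of the same number deviating together here as well, 6 of 10 were called lower: MEF2C, KLF2, KLF4, KLF6, NR4A3 and RHOB, beside 13.9% of all genes in either direction. Their blocked log2 fold changes ran from -0.98 for RHOB to -1.59 for MEF2C. Without KO #11 OXPT replicate 3, KLF2 (-1.77), KLF4 (-2.06) and RHOB (-1.31) were called, and without WT untreated replicate 3, KLF2 (-1.20), KLF6 (-1.40) and RHOB (-0.96) were. Over the 24 fits that left out 1 library, 4.49% to 12.1% of all genes were called. The highest share was without WT untreated replicate 3. RHOB was called without WT untreated replicate 2 as well (-0.95). The WT libraries enter these comparisons only through the shared spread, the scaling and the genes tested. With just the groups compared in the fit, 6 of 10 were called lower, beside 22.2% of all genes, and without the libraries numbered 3 it was 7 of 10, beside 22.8%.

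NR4A1 had like levels with and without OXPT in KO #11 cells, 34.6, 34.7 and 36.4 CPM untreated and 32.3, 31.6 and 42.4 CPM with OXPT. Its log2 fold change was 0.01 (95% interval -0.73 to 0.74). NR4A2, the receptor known from dopamine neurons, had 27.8, 37.6 and 37.1 CPM untreated and 22.6, 19.1 and 29.1 CPM with OXPT, at -0.54 ± 0.32. NR4A3 had 6.0, 5.14 and 3.52 CPM untreated and 2.27, 1.94 and 2.88 CPM with OXPT, groups without overlap, at -1.04 ± 0.39.

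In WT cells OXPT raised NR4A1, from 22.1, 25.0 and 31.7 CPM to 48.5, 52.9 and 125 CPM. The groups did not overlap and replicate 3 with OXPT was far above the rest. The log2 fold change was 1.52 ± 0.36 (edgeR, adjusted p = 0.00868), and NR4A1 was the 1 gene of 10 called, beside 10.7% of all tested genes. Without WT OXPT replicate 3 the log2 fold change was 0.95 and the call was lost (edgeR, adjusted p = 0.0897). NR4A1 was also the 1 gene of 10 whose OXPT libraries all lay above the untreated ones, beside 11.5% of all genes. The 10 estimates had a median of 0.04, with 5 on each side of 0.

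WT untreated replicate 3 shaped the other WT values. It held 212 CPM of KLF2, 152 CPM of KLF4, 641 CPM of KLF6 and 464 CPM of RHOB, against 52.4 and 54.3, 43.8 and 73.2, 118 and 144, and 191 and 186 CPM in the other two untreated WT libraries. Without it, OXPT called RHOB (1.01 ± 0.29, edgeR, adjusted p = 0.0235) and MEF2D (0.67 ± 0.21, edgeR, adjusted p = 0.0368) higher. That fit called 17.0% of all genes, the highest share for this comparison when 1 library was left out. With the replicate block, the pairing holding in WT cells too, KLF4 was called lower (-0.96 ± 0.29, edgeR, adjusted p = 0.0318) beside NR4A1, 2 of 10 with 15.3% of all genes called. Unblocked, KLF4 was at -1.01, and at -0.39 without WT untreated replicate 3. Without the libraries numbered 3, NR4A1, RHOB and KLF4 were called, 3 of 10 beside 20.9% of all genes.

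**Figure D3:**
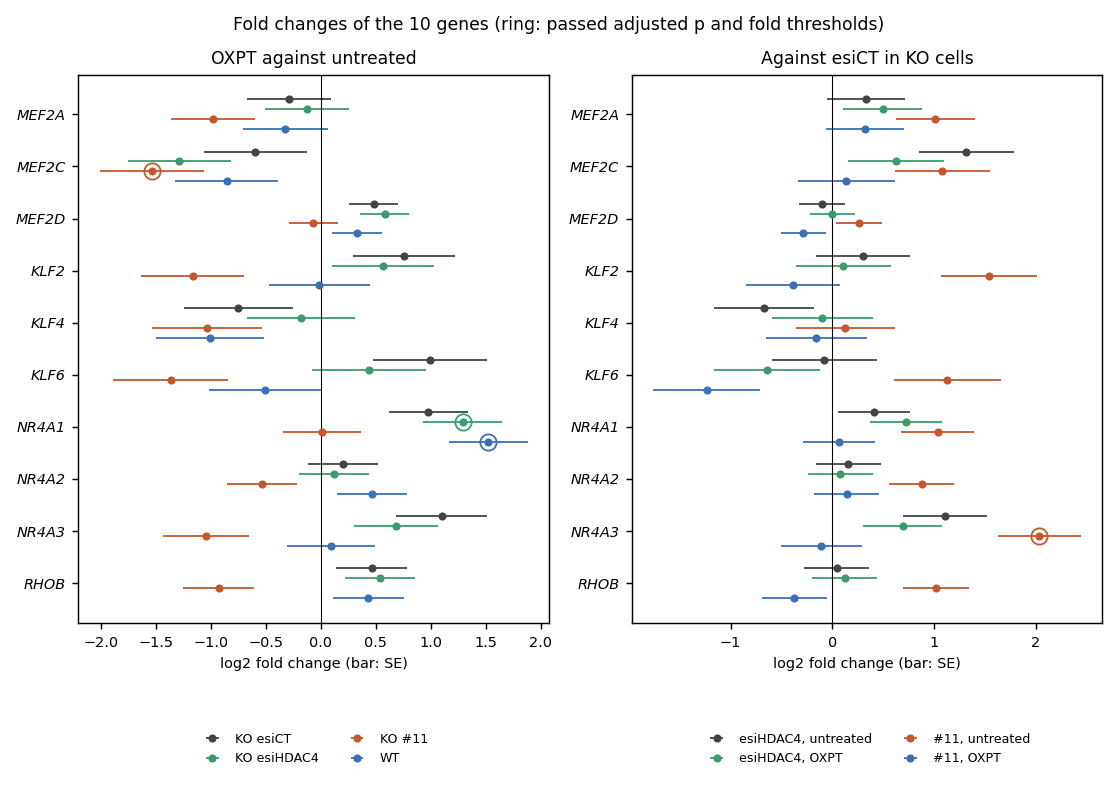
Log2 fold change with its SE for the 10 genes, OXPT against untreated in the 4 kinds of cells (left) and esiHDAC4 or #11 against esiCT in KO cells (right); a ring marks a gene that passed the call. Left, KO #11 lies below 0 for 9 of the 10 genes, and NR4A1 is ringed for KO esiHDAC4 and WT; right, untreated #11 lies above 0 for all 10.

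Next, #11 was compared with esiCT in KO cells without OXPT. Unlike in the other comparisons of groups, libraries of the same number did not deviate together between #11 and esiCT (r from -0.25 to 0.11). What set the #11 libraries apart in this was not tested. All 10 estimates were above 0, with a median log2 fold change of 1.03 beside 0.00 over all tested genes. All #11 libraries lay above all esiCT libraries for MEF2A, MEF2C, KLF2, KLF6, NR4A1, NR4A3 and RHOB, 7 of 10, and this was so for 17.2% of all tested genes. At an unadjusted p under 0.05, 8 of 10 were higher, beside 13.8% of all genes in either direction. After correction 1 of 10 was called, NR4A3, beside 0.510% of all genes. The untreated #11 libraries also serve as the baseline of the OXPT response in KO #11, so the 2 comparisons are not independent: a high value there enters both.

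NR4A3 had 6.0, 5.14 and 3.52 CPM with #11 against 1.57, 0.68 and 1.32 CPM with esiCT. Each #11 library was above each esiCT library, and the log2 fold change was 2.03 ± 0.41 (edgeR, adjusted p = 0.039). The group where it is high is the one that let it pass the count filter. Without any count filter it was called as well (1.99, edgeR, adjusted p = 0.00131). Leaving out any of 12 libraries ended the call, including each of the 6 compared, with log2 fold changes from 1.75 to 2.27. The others were KO #11 OXPT replicate 2, KO esiHDAC4 OXPT replicate 2, the 3 untreated KO esiHDAC4 libraries and WT OXPT replicate 2. With reverse-strand counts it fell under the count filter and was not tested.

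KLF2 had 123, 131 and 176 CPM with #11 against 42.5, 57.4 and 47.7 CPM with esiCT. RHOB had 323, 330 and 421 CPM with #11 against 170, 195 and 165 CPM. KLF6 had 288, 294 and 191 CPM against 112, 113 and 128 CPM. In the 3 genes even the lowest #11 library was well above the highest esiCT library, yet the adjusted p missed the threshold: KLF2 at 1.54 ± 0.47 (edgeR, adjusted p = 0.124), RHOB at 1.02 ± 0.32 (edgeR, adjusted p = 0.137) and KLF6 at 1.13 ± 0.52 (edgeR, adjusted p = 0.342). KLF2 was called by DESeq2 (adjusted p = 0.0367), which called 2 of 10 and 3.31% of all genes. Without WT untreated replicate 3 both KLF2 (edgeR, adjusted p = 0.0256) and RHOB (edgeR, adjusted p = 0.0374) were called. That fit called 2.73% of all genes.

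NR4A1 had 34.6, 34.7 and 36.4 CPM with #11 against 12.4, 16.4 and 22.8 CPM with esiCT, at 1.03 ± 0.36. NR4A2 had 27.8, 37.6 and 37.1 CPM against 16.1, 11.2 and 28.5 CPM, at 0.88 ± 0.32, and 1.32 without KO esiCT untreated replicate 3, the library in which the groups overlapped. MEF2A had 33.6, 32.6 and 44.2 CPM against 17.0, 18.2 and 19.5 CPM, at 1.01 ± 0.38. MEF2C, at 28.9, 22.4 and 27.4 CPM against 15.1, 12.1 and 10.0 CPM, differed by 1.08 ± 0.47. So among the MEF2 genes MEF2A and MEF2C were separated between the groups, and MEF2D (0.27, 95% interval -0.20 to 0.73) and KLF4 (0.13, 95% interval -0.89 to 1.15) were not. With just the 2 groups in the fit, 7 of the 10 were called higher, beside 4.78% of all genes, and these were the 7 without overlap. Without the libraries numbered 3 it was 6 of 10, beside 14.5%: KLF2, KLF6, NR4A1, NR4A2, NR4A3 and RHOB.

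The same comparison was made under OXPT, where libraries of the same number again did not deviate together (r from -0.23 to 0.13). Of the 10 genes 0 were called, beside 0.121% of all tested genes, and 0 by DESeq2, beside 1.02%. At an unadjusted p under 0.05 there was 1, KLF6, beside 10.2% of all genes, and 4 estimates were above 0. Without the libraries numbered 3, 2 of 10 were called, KLF4 (-1.12) and RHOB (-0.78), both lower with #11, beside 11.5% of all genes. KLF6 stood lower with #11, at 87.7, 82.6 and 129 CPM against 105, 187 and 413 CPM, with a log2 fold change of -1.24 ± 0.52. The groups overlapped, and without KO esiCT OXPT replicate 3 the value was -0.57. MEF2D was the 1 gene of 10 with all #11 libraries lower (58.4, 64.7 and 57.1 against 68.3, 77.2 and 73.9 CPM), beside 4.89% of all genes, and its log2 fold change was -0.28 ± 0.23. For RHOB the interval ran from -1.04 to 0.29, and for NR4A1 from -0.67 to 0.80.

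Whether the OXPT response differed between #11 and esiCT was tested as an interaction. It uses the same untreated #11 and esiCT libraries as the comparison above, so it is not independent of it. NR4A3 passed the count filter only through untreated KO #11, which favours a difference here. All 10 estimates were below 0, with a median of -0.95 on the log2 scale beside -0.02 over all genes. None was called (0 of 10), and 0% of all tested genes were, and DESeq2 called 0 of 10 and 0.291% of all genes. At an unadjusted p under 0.05 there were 4 of 10, beside 6.98% of all genes: NR4A3 at -2.14 ± 0.57 (edgeR, adjusted p = 0.376), KLF6 at -2.37 ± 0.74 (edgeR, adjusted p = 0.432), RHOB at -1.39 ± 0.45 (edgeR, adjusted p = 0.46) and KLF2 at -1.93 ± 0.66 (edgeR, adjusted p = 0.488). Without the libraries numbered 3, KLF2, KLF6, NR4A1 and RHOB were called, 4 of 10 beside 1.95% of all genes, with log2 differences of -2.21, -2.20, -1.76 and -1.63.

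Silencing of HDAC4 gave a median log2 fold change of 0.23 over the 10 genes in untreated KO cells, beside 0.00 over all genes. There 0 of 10 genes were called, beside 0.00809% of all tested genes, and 0 by DESeq2, beside 0.324%. At an unadjusted p under 0.05 there were 2 of 10, beside 3.19% of all genes. All esiHDAC4 libraries lay above all esiCT ones for MEF2A and MEF2C, 2 of 10 beside 9.61% of all genes. MEF2C had 39.4, 24.9 and 28.4 CPM with esiHDAC4 against 15.1, 12.1 and 10.0 CPM with esiCT, and its lowest esiHDAC4 library was well above its highest esiCT library. Its log2 fold change was 1.32 ± 0.47, with a 95% interval of 0.34 to 2.30 and an edgeR p of 0.0108 before correction (adjusted p = 1.00). MEF2A stood at 22.4, 24.0 and 22.3 CPM against 17.0, 18.2 and 19.5 CPM, a difference of 0.33 ± 0.38. NR4A3, at 4.32, 1.40 and 1.93 CPM against 1.57, 0.68 and 1.32 CPM, had 1.11 ± 0.41, and 0.50 without KO esiHDAC4 untreated replicate 1, with overlapping groups.

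The esiHDAC4 estimates were 0.04 for RHOB (95% interval -0.62 to 0.71), 0.30 for KLF2 (-0.67 to 1.27) and -0.08 for KLF6 (-1.16 to 1.00). With #11 the same genes had 1.02 (0.35 to 1.69), 1.54 (0.56 to 2.53) and 1.13 (0.04 to 2.22). The estimates were higher with #11, but the intervals of the 2 agents overlapped. MEF2C alone of the 10 had the higher estimate with esiHDAC4 (1.32 against 1.08). The difference between the agents, which share the esiCT libraries, was not tested. Under OXPT 0 of 10 were called, with 0% of all genes, 0 by DESeq2, with 0.0728%, and 0 had an unadjusted p under 0.05, beside 3.08%. NR4A1 was the 1 gene of 10 with all esiHDAC4 libraries higher, at 52.3, 61.5 and 53.8 CPM against 41.8, 45.0 and 14.4 CPM, beside 2.10% of all genes. Its log2 fold change was 0.72 ± 0.35, and 0.37 without KO esiCT OXPT replicate 3. The OXPT responses with esiHDAC4 and with esiCT were not shown to differ for any of the 10 (0 called by edgeR and by DESeq2, with 0% of all genes by each, and 0 at an unadjusted p under 0.05, beside 0.154%). The largest estimate was -0.69 ± 0.66 for MEF2C, and leaving out single libraries gave -1.16 to -0.34.

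Finally KO esiCT cells were set beside WT. In untreated cells all 10 estimates were lower in KO, with a median log2 difference of -0.75 beside -0.03 over all genes, and 0 of 10 were called, beside 0.291% of all genes. DESeq2 called 0, beside 0.947%, and 3 of 10 had an unadjusted p under 0.05, beside 5.74%. KLF4 had 32.4, 26.4 and 36.5 CPM in KO and 43.8, 73.2 and 152 CPM in WT, and each KO library lay below each WT library. NR4A3 did so too (1.57, 0.68 and 1.32 against 2.49, 2.06 and 1.78 CPM), which made 2 of 10, beside 3.52% of all genes. KLF4 had a log2 difference of -1.50 ± 0.50 (edgeR, adjusted p = 0.452), which was -0.89 without WT untreated replicate 3 and -0.98, not called, without the libraries numbered 3 (edgeR, adjusted p = 0.0984). With the replicate block KLF4 was called (-1.34 ± 0.30, edgeR, adjusted p = 0.0445), 1 of 10 beside 0.607% of all genes. The estimates for KLF2 (-1.11) and KLF6 (-1.35) shrank to -0.12 and -0.16 without WT untreated replicate 3.

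With OXPT 0 of 10 genes were called between KO esiCT and WT, beside 0.138% of all genes. DESeq2 called 0, beside 0.243%, and 2 of 10 had an unadjusted p under 0.05, beside 5.40%. KLF4, NR4A1 and RHOB were lower in all KO libraries, 3 of 10 beside 4.11% of all genes. KLF4 had 18.8, 16.3 and 21.4 CPM in KO and 27.6, 37.7 and 68.0 CPM in WT, at -1.24 ± 0.50. NR4A1, at 41.8, 45.0 and 14.4 against 48.5, 52.9 and 125 CPM, had -1.15 ± 0.36, and -0.23 without the libraries numbered 3. RHOB, at 213, 269 and 246 against 270, 338 and 525 CPM, had -0.64 ± 0.32. Without WT OXPT replicate 3 the values were -0.80 for KLF4, -0.59 for NR4A1 and -0.33 for RHOB. KLF4 was thus lower in each KO esiCT library than in each WT library at both states. For the OXPT response of KO esiCT against that of WT, 0 of 10 were called by edgeR and by DESeq2, with 0% of all genes by each, and 0 had an unadjusted p under 0.05, beside 1.63%.

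Across the 24 libraries the 10 genes fell into loose sets. KLF2 and RHOB followed each other most closely, with a Pearson r of 0.94 between their log2 CPM. KLF2 also went with KLF6 (r = 0.85), and KLF6 with RHOB (r = 0.79). MEF2A and MEF2C went together (r = 0.69) and both ran against MEF2D (r = -0.48 and -0.61). MEF2D went with RHOB (r = 0.74) and NR4A1 (r = 0.71). KLF4 followed KLF6 (r = 0.62) and RHOB (r = 0.58), and NR4A3 had its highest value, 0.49, with NR4A2. These values are descriptions: libraries share groups, replicate numbers and, for WT untreated replicate 3, 1 library that is high in several of the genes.

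**Figure D4:**
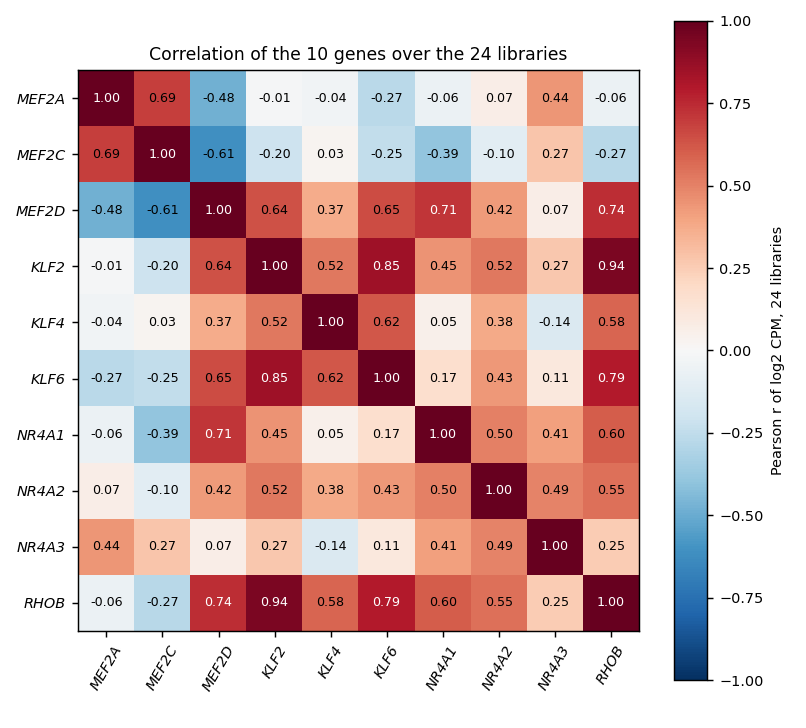
Pearson r of log2 CPM between the 10 genes over the 24 libraries, printed in each cell, red for positive and blue for negative. The block of KLF2, KLF6 and RHOB holds values from 0.79 to 0.94, and MEF2D is negative with MEF2A and MEF2C.

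Among all tested genes, the 3 most alike to each member over the 24 libraries were named by the same r. KLF2 was closest to RHOB, then to NUP50-DT (0.90), a noncoding gene, and PPP1R15A (0.88), which reverses the arrest of translation under stress. RHOB was closest to KLF2, then to JUN (0.90), a subunit of AP-1, and RAB9A (0.88). KLF6 was closest to CLDN7 (0.92), a tight junction protein, DNAJC1 (0.88) and KRT10 (0.88). MEF2C was closest to PCDH7 (0.90), a protocadherin, PRKACB (0.90), a catalytic subunit of protein kinase A, and MPP7 (0.89). MEF2A was closest to SLC35F5 (0.94), BBS10 (0.91) and AP1AR (0.91), and MEF2D to MISP (0.94), C6orf132 (0.93) and SMAD3 (0.92). For KLF4 they were ING1 (0.88), FUT3 (0.85) and C6orf141 (0.84). NR4A1 was closest to TNRC18, SHROOM3 and RIPK4, each at 0.86, NR4A2 to TSPYL4 (0.85), TOB2 (0.83) and IRF2BPL (0.80), and NR4A3 to DUSP16 (0.76), PABIR1 (0.70) and ZNF333 (0.70).

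Other genes of the pathway were read from 3 lists. Of 9 class IIa HDAC and corepressor genes 7 were tested, of which 0 rose and 2 fell with OXPT in KO esiCT, 0 and 2 in KO esiHDAC4, 0 and 1 in KO #11, and 1 and 2 in WT. Of all tested genes 11.3%, 12.0%, 9.51% and 10.7% were called in these comparisons, in either direction. HDAC4 itself fell with OXPT in KO esiCT (-1.56 ± 0.25, edgeR, adjusted p = 0.000287), KO esiHDAC4 (-1.48 ± 0.25) and WT cells (-1.29 ± 0.24), and was not called in KO #11. Under OXPT its RNA was higher with #11 than with esiCT (16.6 ± 2.02 against 6.50 ± 0.91 CPM, SD, n = 3, log2 fold change 1.36 ± 0.25, edgeR, adjusted p = 0.0383). TBL1X, a part of a corepressor complex with HDAC3, fell in all 4 kinds of cells (-0.81 to -1.03), and HDAC5 rose in WT cells (0.65 ± 0.20, edgeR, adjusted p = 0.0394). No gene of this list was called between esiHDAC4 and esiCT by edgeR, at either state.

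Of 25 kinases and partners that act on class IIa HDACs or MEF2, 24 were tested. SFN, a 14-3-3 protein that p53 induces, rose with OXPT in all 4 kinds of cells, by 1.72 in WT to 2.47 in KO esiHDAC4 on the log2 scale. CAMK1D, a calcium-dependent kinase, fell in all 4 (-1.99 to -2.71), as did CAMK2D (-1.09 to -1.45). CABIN1, which holds MEF2 in a repressed state, was lower in KO esiCT (-0.63) and KO esiHDAC4 (-0.65). SIK2, a kinase of class IIa HDACs, was lower in KO esiHDAC4 (-0.76) and WT (-0.75), and PRKD2 was higher in KO #11 (0.77) and WT (0.65). CAMK2G rose in KO #11 (0.85 ± 0.20) and SIK1 in WT (0.76 ± 0.24). In all, 1 rose and 3 fell in KO esiCT, 1 and 4 in KO esiHDAC4, 3 and 2 in KO #11, and 3 and 3 in WT, of the 24. The shares of all tested genes called there, in either direction, were 11.3%, 12.0%, 9.51% and 10.7%. None of the 24 was called for esiHDAC4 or #11 against esiCT, or for KO against WT, by edgeR, where at most 0.510% of all genes were.

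Of 20 other genes of the same families 15 were tested. KLF12, a repressor of the KLF family, fell with OXPT in KO esiCT (-1.94 ± 0.38), KO esiHDAC4 (-2.19 ± 0.38), KO #11 (-2.26 ± 0.39) and WT cells (-1.77 ± 0.39). KLF5, a factor of proliferating crypt epithelium, was higher with #11 in untreated KO cells (1.20 ± 0.24, edgeR, adjusted p = 0.039) and fell with OXPT in KO #11 (-1.10 ± 0.24, edgeR, adjusted p = 0.00612). Both values rest on the same untreated #11 libraries. RHOC rose with OXPT in KO esiCT (1.59 ± 0.49, edgeR, adjusted p = 0.039), NR2F1 fell in KO #11 (-1.11 ± 0.31) and RXRA, a partner of NR4A1 and NR4A2, fell in WT (-0.78 ± 0.24). In untreated KO cells 1 of the 15 was called higher with #11 and 0 lower, beside 0.510% of all genes in either direction. With OXPT in KO #11, 0 were called higher and 3 lower, beside 9.51%, with a median of -0.84 over the 15.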

How the data were processed

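PolyA RNA was sequenced from 36 libraries of HCT-116 cells. Per the labels, the authors' processing used Trimmomatic 0.39 and STAR 2.7.11a on hg38. The deposited values are raw read counts per gene, not normalized, in unstranded, forward-strand and reverse-strand columns. The study's methods name another quantifier, salmon, followed by DESeq2. Its tests were thus run on other values than these. The kit is stranded, but the 2 strand columns held equal totals (ratio 1.004 to 1.016), so the unstranded column was used, whose ambiguous share was 10.6% to 12.2%, and reverse-strand counts were an alternative.

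Groups came from the labels, and 12 WT libraries with contradictory labels were left out. Counts were fitted in R 4.3.3 with edgeR 4.0.16 (TMM, quasi-likelihood F test, 1 coefficient per group, 24 libraries). Genes needed a mean of 64 counts in at least 1 group, and calls an adjusted p under 0.05 and a fold over 1.5. An SE was approximated by dividing the size of a log2 fold change by √F, and intervals are at 95%. CPM were taken to log2 after adding a prior count of 2. The fit was tested on simulated data. DESeq2 1.42.0, RLE scaling, other filters, the replicate block, smaller fits and leaving out libraries were alternatives. Genes were named as the 10 members, list genes called in at least 1 comparison, markers, and the 3 genes most alike to each member. 1 gene of these lists is not reported here. The members and lists were chosen with earlier results of these data known.

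Replicate numbers were taken to pair libraries where the deviations from group means of all same-numbered libraries correlated over 0.1. This held for 8 of 10 comparisons of groups (lowest 0.11) and not for #11 against esiCT, untreated (-0.25 to 0.11) or with OXPT (-0.23 to 0.13). In all 24 pairs of libraries of a group the chi-square per degree of freedom was at least 8.31, above sampling noise. Promoter windows are from RefSeq on GRCh38.p14 and positions from GENCODE 44.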

Additional observations from a re-analysis of the deposited data

Results flagged for a closer look

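RHOB and NR4A3 met the rule on opposite responses: in KO esiCT every OXPT library lay above every untreated one, and in KO #11 every OXPT library lay below every untreated one. Taken singly, these held for 15.3% and 20.1% of all tested genes. The share of all genes meeting both was not counted. The interaction, which tests the difference itself, was -1.39 ± 0.45 for RHOB (edgeR, adjusted p = 0.46) and -2.14 ± 0.57 for NR4A3 (edgeR, adjusted p = 0.376), so neither passed correction. Both comparisons were described above, and the untreated #11 libraries were high for both genes. NR4A3 passed the count filter only through those libraries, which favours such a difference.

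The 12 WT libraries with contradictory labels entered no comparison. For 9 of the 10 genes at least 1 of them exceeded all 24 libraries of the groups, when all 36 were scaled together, and NR4A1 did not. Neither this nor the counts of libraries below were taken over all genes. They are thus not read as particular to these genes. The highest values were 43.2 CPM for MEF2A, 48.4 for MEF2C, 145 for MEF2D, 279 for KLF2, 193 for KLF4, 673 for KLF6, 51.7 for NR4A2, 8.63 for NR4A3 and 696 CPM for RHOB. The highest values in the 24 grouped libraries were 42.4 CPM for MEF2A, 38.9 for MEF2C, 118 for MEF2D, 208 for KLF2, 150 for KLF4, 630 for KLF6, 46.8 for NR4A2, 6.23 for NR4A3 and 505 CPM for RHOB. RHOB exceeded it in 7 of the 12 libraries and KLF2 in 6. Groups of 3 were too small for a test of single outlying libraries.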

How the results depend on the processing

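Under the alternatives, 0 called values of the 10 genes changed sign, and RLE scaling changed no call of the 10 genes. The number of the 10 genes called moved as follows. Shares in brackets are of all genes tested in the same fit, in the same order. The replicate block gave 2 for OXPT in KO esiCT, 2 in KO esiHDAC4, 6 in KO #11 and 2 in WT, 4 for #11 against esiCT untreated and 1 for KO against WT untreated (15.7%, 16.7%, 13.9%, 15.3%, 3.21% and 0.607%), beside 0, 1, 1, 1, 1 and 0. It moved the count of no other comparison, and for #11 against esiCT, where numbers did not pair libraries, it is given only here. Without a count filter the counts were, for the same comparisons, 2, 2, 5, 2, 4 and 3 (4.35%, 4.44%, 3.40%, 4.56%, 1.12% and 0.751% of 42865 genes), with 1 for #11 and 1 for KO against WT under OXPT (0.856% and 0.212%), and 2 for the difference in OXPT response between #11 and esiCT (0.152%). With a filter in every group it was 0 for #11 untreated (0.567%), since NR4A3 was then not tested. DESeq2 gave 1, 2, 2 and 2 for OXPT in KO esiCT, in KO esiHDAC4, in KO #11 and for #11 untreated (15.0%, 15.2%, 12.6% and 3.31%), so that the counts for OXPT are near the share of all genes. Reverse-strand counts gave 1 for OXPT in KO esiCT, 0 in KO #11 and 0 for #11 untreated (9.76%, 8.29% and 0.406%). Fits of the groups compared alone gave 6 in KO #11, 0 in WT and 7 for #11 untreated (22.2%, 0.713% and 4.78%). Without the libraries numbered 3, added after seeing the data, it was 3, 2, 7 and 3 for OXPT in KO esiCT, KO esiHDAC4, KO #11 and WT, 6 for #11 untreated, 2 for #11 under OXPT and 4 for that difference (17.4%, 18.0%, 22.8%, 20.9%, 14.5%, 11.5% and 1.95%). Leaving out 1 library gave 0 to 1 in KO esiCT (6.30% to 15.2% of all genes), 0 to 2 in KO esiHDAC4 (6.53% to 15.5%), 0 to 4 in KO #11 (4.49% to 12.1%), 0 to 3 in WT (6.69% to 17.0%) and 0 to 3 for #11 untreated (0% to 2.73%). The cause was not tested. With 3 libraries a group and NR4A3 at 11 to 109 reads, depth limits NR4A3 most.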

Other observations

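Over the 12 WT libraries that the labels put in no group, KLF2 ran from 51.2 to 279 CPM with a median of 212, and RHOB from 152 to 696 CPM with a median of 548. In the 24 grouped libraries the medians were 68.8 CPM for KLF2 and 227 CPM for RHOB. NR4A1 had a median of 72.8 CPM (41.2 to 116), above the median of 32.1 CPM in the grouped libraries, and KLF4 one of 81.4 CPM (19.1 to 193) against 27.2 CPM. MEF2C had a median of 8.89 CPM (4.10 to 48.4) against 12.2 CPM, and MEF2A one of 16.4 CPM (4.87 to 43.2) against 18.0 CPM. No comparison of these libraries was made, since their labels do not settle the treatment.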
